A study of Mus musculus with 8 samples.

Results

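The genes described here are 42 complement and coagulation genes, most of them known as hepatocyte genes, measured in fibrotic mouse livers, 20 of the complement system and 22 of blood clotting and fibrinolysis. They are the genes of a list of 44 whose array probe carried the gene's name and was well above background on at least 4 of 8 arrays, taken from 18534 measured genes and transcripts, each represented by its brightest probe. Of the rest, the name C5 matched no probe (its mouse symbol is Hc), and Cfd, complement factor D, was well above background on 3 arrays and was left out. Those 3 were all of CCl4 livers (1-week miR-29a, 2-week NC and 2-week miR-29a), and Cfd was so on no array of TAA livers. All 42 kept genes were well above background on all 8 arrays, so none of them passed the filter through 1 group only.

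Complement proteins and clotting factors circulate as inactive precursors, most of them made by hepatocytes, and are switched on by chains of proteases in which each enzyme cuts the next. Clotting ends with thrombin cutting fibrinogen into fibrin, which factor XIII crosslinks and plasmin dissolves, and complement ends with a pore of late components in a target membrane. Several of these genes are acute-phase genes, raised in the liver by interleukin 6 and interleukin 1, and the plasma levels of vitamin K-dependent factors are used clinically as a measure of liver synthesis.

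The samples were whole livers of male mice treated for 5 weeks with thioacetamide (TAA) or carbon tetrachloride (CCl4), toxins that injure hepatocytes and cause fibrosis. The mice were then observed for 2 weeks or 1 week and injected every 3 days with miR-29a or with a negative control oligonucleotide (NC). Each toxin (TAA or CCl4) was combined with each time (2 weeks or 1 week) and each oligonucleotide (miR-29a or NC), which gives 8 groups with 1 sample and 1 array in each, and pooling of animals is neither stated nor denied. Every liver, NC livers included, had received a toxin and an oligonucleotide, so no group shows an uninjured liver, and strain, age and doses are not given in the sources used here. With 1 array per group, each comparison set 4 arrays against the other 4, or 2 against 2 within 1 week or agent, and the error is the spread left after agent, week and oligonucleotide were fitted.

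The injected oligonucleotide is named only miR-29a. For orientation, the mature mouse miR-29a-3p of RefSeq, at chr6:31062673-31062694 on the minus strand of GRCm38.p6, is shown with the seed (bases 2 to 8) in capitals.
mmu-miR-29a-3p: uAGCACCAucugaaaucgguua

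Levels are log2 processed signals minus the log2 75th percentile of the same array, so 1 unit is a doubling relative to that array's percentile. The 75th percentile was 136 to 219 signal units, no spot was saturated, and 43.9 to 48.4% of probes were well above background. All 8 arrays lay on 1 slide and shared 1 scan, with the TAA arrays in one row of the slide and the CCl4 arrays in the other, so agent and slide row cannot be told apart. In whole liver, fewer cells of a type and less RNA per cell cannot be told apart. Hepatocyte markers were high throughout, with the summed level of 14 of 15 listed markers (relative to the array's percentile) between 9700 and 12567. One array stood apart: TAA 1-week NC had a summed level of 17 acute-phase genes of 11690, against 2361 to 3316 on the other 7 arrays. Its sum over 6 of 9 listed neutrophil genes was 324, against 8.06 to 12.3 elsewhere, and over 10 of 11 macrophage and Kupffer cell genes it was 354, against 49.4 to 87.4 elsewhere.

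**Figure D1:**
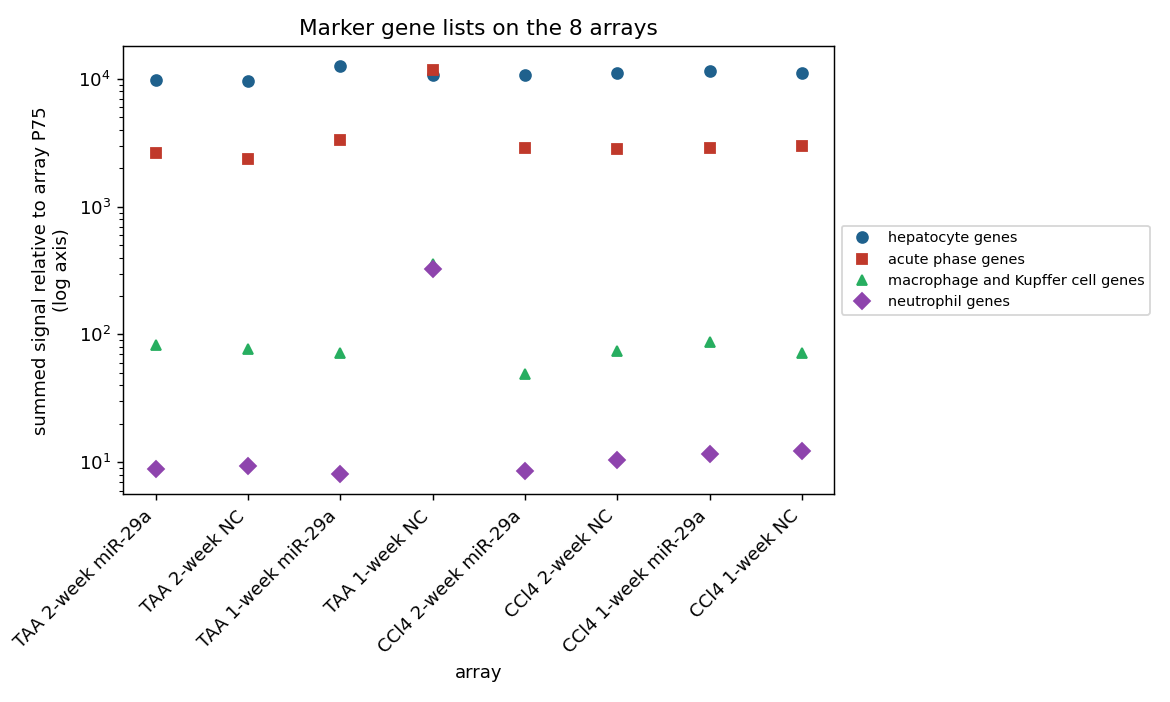
Summed signal of 4 marker lists on each of the 8 arrays, relative to the array's 75th percentile (vertical axis, logarithmic; 1 point per array, TAA arrays on the left). The hepatocyte sums stay between 9700 and 12567, while the TAA 1-week NC array is the highest for acute-phase, macrophage and neutrophil genes.

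After 1 week, F13b, Klkb1 and F9 had the largest falls in TAA livers relative to CCl4 livers. Proz was the only member higher at the threshold used (limma adjusted p under 0.05), although 13 of 42 members lay above 0. Cfp (+1.58) and C4b (+0.64) were higher by more than Proz (+0.52) but did not pass. In TAA livers 10 of the 42 genes were lower and 1 was higher than in CCl4 livers after 1 week, at an adjusted p under 0.05 (limma, two-sided, Benjamini-Hochberg over all 18534 features). That share has to be read against the background: in the same comparison 35.7% of all features passed, 23.1% as lower and 12.6% as higher in TAA livers, so the members that fell (23.8%) were about as frequent as in the whole array and the share that rose was 2.38%. At an unadjusted p under 0.05 it was 16 members, beside 48.3% of all features. The median difference over the members was -0.17, beside -0.16 over all features, and with normexp background correction these were -0.32 and -0.10. Among the coagulation genes 7 of 22 fell and 1 rose, with a median of -0.29, and among the complement genes 3 of 20 fell and none rose, with a median of 0.01. The remaining 31 members did not pass. In all such counts, here and below, fell and rose mean past the threshold. Whether the 2 classes differ from each other was not tested. The count moved with single arrays, and the share of all features moved with it. It was 1 member (16% of all features) without the NC array of CCl4 livers at 1 week and 1 (9.52%) without the miR-29a array there. It was 4 (23.4%) without either CCl4 2-week array and 7 (28.2%) without either TAA 2-week array. Without the TAA 1-week NC array it was 11 (30.5%), of which 8 were the same genes, while leaving out the miR-29a array of that pair gave 13 (40.2%), again with 8 the same.

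**Figure D2:**
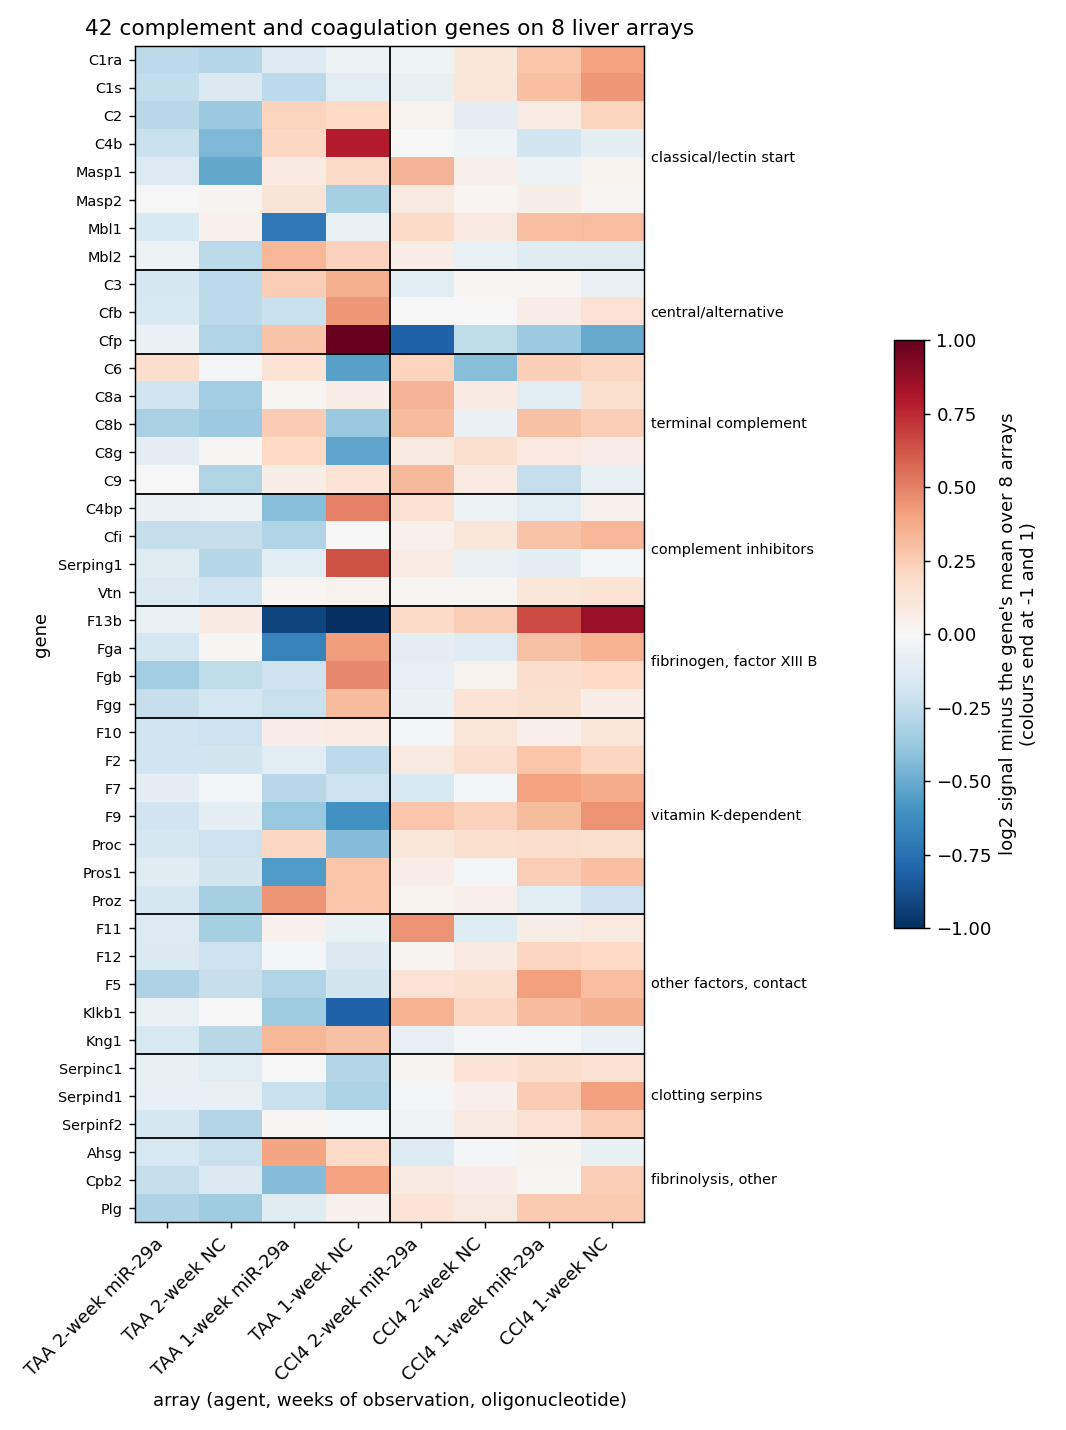
Deviation of each of the 42 genes from its own mean over 8 arrays, in log2 (colour, red above and blue below the mean, ending at -1 and 1), with genes in rows by role and arrays in columns, TAA on the left. F13b is at its lowest on both TAA 1-week arrays, and the TAA 2-week NC array is the lowest of the 8 for 19 genes.

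F13b, the carrier subunit of factor XIII that holds the crosslinking enzyme in plasma, had the largest difference of the members. Its level was 3.38 and 3.25 on the TAA 1-week miR-29a and NC arrays, against 4.95 and 5.16 on the CCl4 1-week miR-29a and NC arrays. It was thus 3.34-fold lower in TAA livers, a log2 difference of -1.74 ± 0.14 (moderated SE, 2 arrays against 2; limma adjusted p = 0.0041). After 2 weeks its levels were 4.23 and 4.38 in TAA livers (miR-29a and NC), against 4.49 and 4.55 in CCl4 livers, a difference of -0.21 ± 0.14 that did not pass (limma adjusted p = 0.54). All 4 TAA values lay below all 4 CCl4 values, by much more after 1 week than after 2 weeks. The change of the agent difference between the weeks was 1.53 ± 0.20 (interaction term, limma adjusted p = 0.0267). F13b was the only 1 of the 42 members to pass that test, or 2.38%, where 9.84% of all features did (5.55% with a positive and 4.29% with a negative term, and 30.4% at an unadjusted p under 0.05). Without any 1 of the 4 CCl4 arrays or of the TAA 2-week arrays, no member and no feature passed, while 2 members (12.8% of all features) did without the TAA 1-week NC array, as did 3 (12.4%) when the miR-29a array of that pair was left out. Its single probe lies at chr1:141420037-141420096 (mm9, the build of the array design).

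The 3 fibrinogen chain genes did not follow F13b. Fga, the alpha chain, was 5.55 and 6.64 on the TAA 1-week miR-29a and NC arrays, against 6.51 and 6.57 in CCl4 livers, so the 2 TAA livers lay on either side of the CCl4 pair (difference -0.45 ± 0.30, limma adjusted p = 0.28). Fgb was 9.92 and 10.61 in TAA livers against 10.31 and 10.33 in CCl4 livers, and Fgg was 9.80 and 10.34 against 10.19 and 10.09. For each of the 3 chains the TAA 1-week NC array, where acute-phase and neutrophil genes were high, was the highest of all 8, and their part in these levels was not tested. The 250 bases before the RefSeq start of F13b and of the 3 fibrinogen genes are printed to set the gene that was low on both TAA 1-week arrays beside 3 neighbouring genes of chromosome 3 that were highest together on 1 of them. They are from GRCm38.p6, 5′ to 3′ on the strand of the gene, at chr1:139501457-139501706 (plus strand, F13b), chr3:83025903-83026152 (plus, Fga), chr3:83049864-83050113 (minus, Fgb) and chr3:83007474-83007723 (plus, Fgg). Capitals mark matches, on either strand, to CTGGGA (the core of an interleukin 6 response element), GTTAAT (one side of an HNF1 site, which reads ATTAAC on the other strand) and TTGCNNAA (a C/EBP site), which do not overlap here.
F13b: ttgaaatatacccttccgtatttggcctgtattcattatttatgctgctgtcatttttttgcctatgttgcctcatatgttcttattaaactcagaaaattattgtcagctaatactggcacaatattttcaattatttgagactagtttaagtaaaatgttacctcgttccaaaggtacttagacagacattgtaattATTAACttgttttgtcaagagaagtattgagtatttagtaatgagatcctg
Fga: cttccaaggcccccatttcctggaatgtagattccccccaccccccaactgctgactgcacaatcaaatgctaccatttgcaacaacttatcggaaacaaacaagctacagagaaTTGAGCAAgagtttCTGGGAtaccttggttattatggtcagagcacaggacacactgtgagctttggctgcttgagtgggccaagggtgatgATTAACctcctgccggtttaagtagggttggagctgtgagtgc
Fgb: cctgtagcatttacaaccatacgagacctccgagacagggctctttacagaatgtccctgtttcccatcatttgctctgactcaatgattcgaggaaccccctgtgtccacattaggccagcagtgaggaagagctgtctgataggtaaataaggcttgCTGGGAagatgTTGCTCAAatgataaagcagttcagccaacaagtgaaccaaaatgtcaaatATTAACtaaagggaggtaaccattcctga
Fgg: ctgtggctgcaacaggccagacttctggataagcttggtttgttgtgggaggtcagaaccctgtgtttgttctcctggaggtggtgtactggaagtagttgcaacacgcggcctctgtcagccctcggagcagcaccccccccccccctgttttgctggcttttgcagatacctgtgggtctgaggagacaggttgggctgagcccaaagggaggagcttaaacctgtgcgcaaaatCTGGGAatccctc

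CTGGGA occurs in all 3 fibrinogen windows, at bases -121 to -116 of Fga, -91 to -86 of Fgb and -13 to -8 of Fgg, and not in that of F13b. GTTAAT, read on the other strand, occurs in F13b at -51 to -46, in Fga at -43 to -38 and in Fgb at -29 to -24. TTGCNNAA occurs in Fga and Fgb. Of the 42 members 32 have a window in the RefSeq table. Counting a member if any of its windows matched, 13 of these (40.6%) hold CTGGGA, 10 (31.2%) GTTAAT and 8 (25.0%) TTGCNNAA. Among all 32851 windows of the same length, counted singly and not by gene, the shares were 27%, 6.43% and 9.56% in that order, so the measures are not alike. These are matches of letters only and say nothing of binding.

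Vitamin K-dependent proteins need a carboxylation step in hepatocytes to bind membranes. Of the 7 measured genes 3 fell in TAA livers after 1 week while 1 rose, beside 23.1% and 12.6% of all features. F9, factor IX of the intrinsic pathway, was 3.38 and 3.15 on the TAA 1-week miR-29a and NC arrays, against 4.07 and 4.21 on the CCl4 1-week arrays. It was 1.84-fold lower in TAA livers (-0.88 ± 0.15, limma adjusted p = 0.0106), and after 2 weeks it was 3.57 and 3.67 in TAA livers against 4.03 and 3.99 in CCl4 livers. The 4 TAA values of F9 were the 4 lowest at both times.

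F7, factor VII, the partner of tissue factor that starts clotting, was 3.59 and 3.65 in TAA livers (miR-29a and NC, 1 week) against 4.27 and 4.24 in CCl4 livers, a difference of -0.64 ± 0.12 (limma adjusted p = 0.0156). After 2 weeks F7 was 3.78 and 3.86 in TAA livers against 3.72 and 3.85 in CCl4 livers, and the groups overlapped. The second probe of F7, which overlaps the first on the genome, gave -0.61 after 1 week. F2, prothrombin, was 8.98 and 8.84 in TAA livers against 9.38 and 9.31 in CCl4 livers after 1 week (-0.44 ± 0.13, limma adjusted p = 0.0492), and 8.91 and 8.91 against 9.18 and 9.26 after 2 weeks, with no overlap at either time.

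Proz, protein Z, a cofactor for the inhibition of factor X, was the single member that passed as higher after 1 week. Its level was 8.41 and 8.24 in TAA livers (miR-29a and NC) after 1 week, against 7.85 and 7.76 in CCl4 livers (+0.52 ± 0.13, 1.43-fold higher, limma adjusted p = 0.0287), and 7.80 and 7.63 against 8.00 and 8.01 after 2 weeks. The TAA livers were thus the higher pair after 1 week and the lower pair after 2 weeks, and the change between weeks was -0.81 ± 0.18 (limma adjusted p = 0.051). Its second probe, also above background on all arrays, went the other way after 1 week, with -0.87, and the rise turned to -0.07 when arrays were scaled to their median. Factor X (F10), protein C (Proc) and protein S (Pros1) did not pass, with differences of -0.02, -0.28 and -0.42 after 1 week. For F10 a second probe gave 2.14 after 1 week, so the probes of that gene disagree.

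A pair of vitamin K cycle genes outside the members fell in the same comparison. Ggcx, the gamma-glutamyl carboxylase, was 1.26 and 1.36 in TAA livers (1 week, miR-29a and NC) against 2.02 and 2.30 in CCl4 livers (-0.85 ± 0.13, limma adjusted p = 0.0079). Vkorc1l1, a paralogue of the vitamin K epoxide reductase, was 0.25 and 0.40 against 1.36 and 1.38 (-1.05 ± 0.15, limma adjusted p = 0.0074). The 2 TAA values were below the 2 CCl4 values in both genes. After 2 weeks Ggcx was 1.87 and 1.99 in TAA livers against 1.92 and 2.01 in CCl4 livers, and Vkorc1l1 was 0.72 and 1.03 against 1.09 and 0.97. Of 22 measured genes in the wider coagulation list, chosen with earlier results of these data known, 8 fell and none rose after 1 week, with a median of -0.45, against 23.1% lower over all features. Besides Ggcx and Vkorc1l1 these included Tfpi2, a Kunitz-type protease inhibitor (-1.31 ± 0.17), Thbd, the endothelial thrombin receptor thrombomodulin (-0.86 ± 0.23), and F3, tissue factor (-0.72 ± 0.18; limma adjusted p from 0.0058 to 0.0374 for these 3 genes).

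Among the other clotting factors and the contact system 2 of 5 genes fell after 1 week, beside 23.1% of all features. Klkb1, plasma prekallikrein, which activates factor XII and releases bradykinin, was 5.90 and 5.45 in TAA livers (miR-29a and NC) against 6.57 and 6.62 in CCl4 livers. The difference was -0.92 ± 0.17, or 1.89-fold lower (limma adjusted p = 0.0145), and after 2 weeks the levels were 6.19 and 6.26 in TAA livers against 6.60 and 6.47 in CCl4 livers. The TAA values of Klkb1 lay below all CCl4 values at both times, and the lowest was that of the TAA 1-week NC array.

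F5, factor V, the cofactor that speeds thrombin formation, was 5.42 and 5.54 in TAA livers against 6.13 and 6.03 in CCl4 livers after 1 week (-0.60 ± 0.13, limma adjusted p = 0.0207). After 2 weeks it was 5.41 and 5.49 in TAA livers against 5.87 and 5.88 in CCl4 livers (-0.42 ± 0.13, limma adjusted p = 0.44), so its TAA levels were alike in both weeks and below every CCl4 value. A second F5 probe gave -0.95 after 1 week and -0.13 after 2 weeks. F11, F12 and Kng1 did not pass, with differences of -0.09, -0.29 and +0.36, and the 2 probes of Kng1, kininogen, disagreed in sign (+0.36 and -1.26 after 1 week). Kng1 has the close copy Kng2, and their probes may pick up both.

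Of the 3 serpins, Serpind1 (heparin cofactor II, a thrombin inhibitor) fell, while Serpinc1 (antithrombin) and Serpinf2 (alpha2-antiplasmin) did not pass, with -0.31 and -0.20. Serpind1 was 7.31 and 7.21 in TAA livers (miR-29a and NC) after 1 week against 7.79 and 7.95 in CCl4 livers (-0.61 ± 0.13, 1.52-fold lower, limma adjusted p = 0.0206). After 2 weeks it was 7.45 and 7.46 in TAA livers against 7.51 and 7.58 in CCl4 livers, so the groups did not overlap but were close. Plg (plasminogen), Cpb2 (the fibrinolysis inhibitor TAFI) and Ahsg (fetuin-A) did not pass after 1 week, with -0.30, -0.14 and +0.32.

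**Figure D3:**
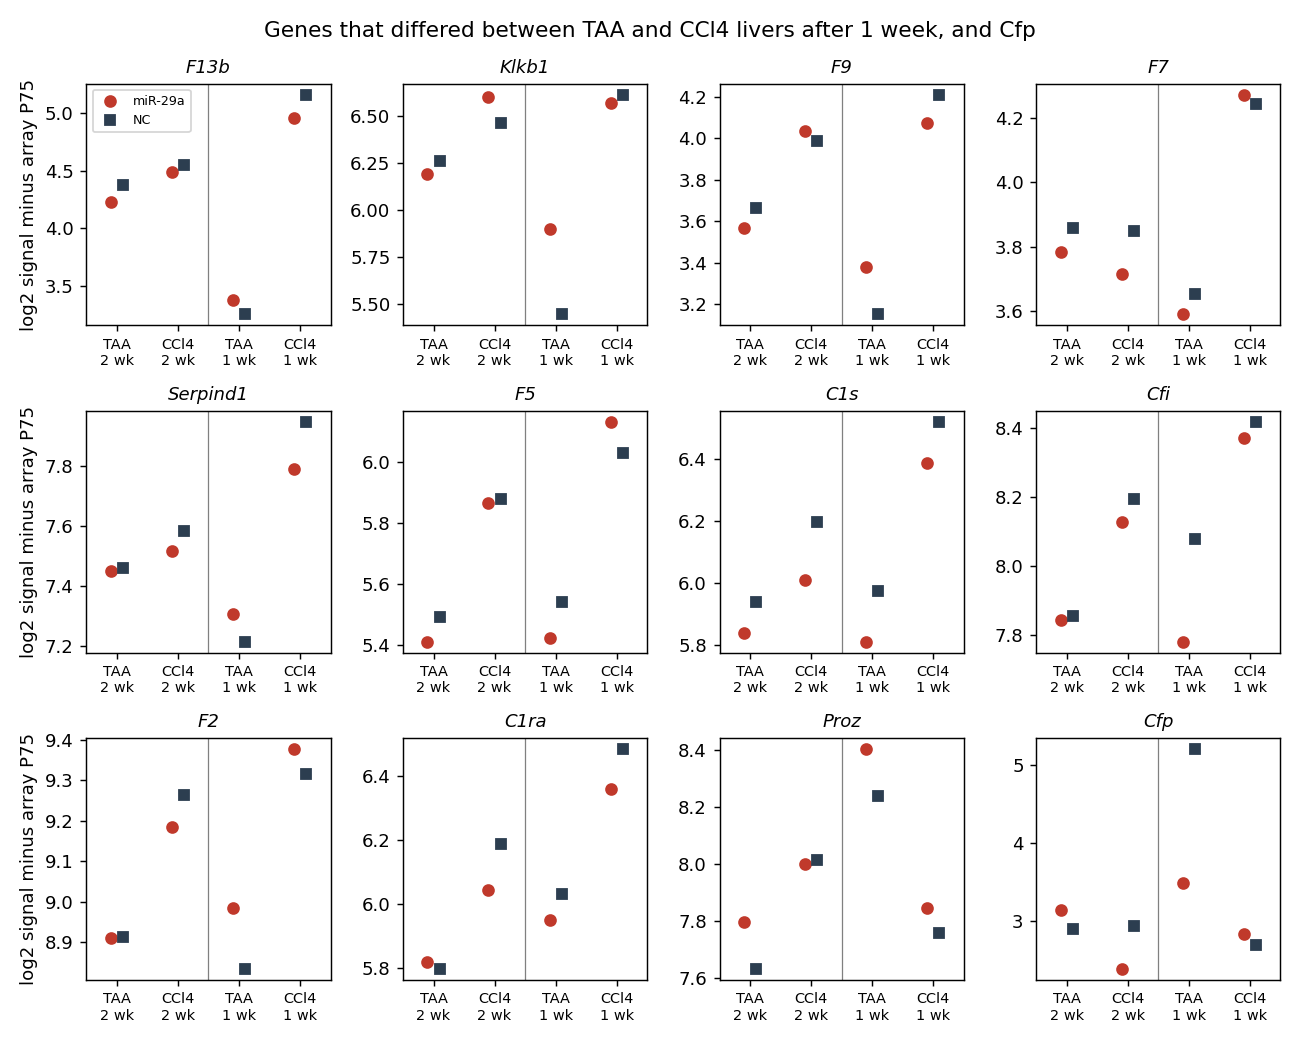
Level of the 11 genes that passed the test after 1 week, and of Cfp, on each array (vertical axis, log2 signal minus the array's 75th percentile (P75); each panel has its own range). Red circles are miR-29a and dark squares NC livers, 1 array each. In 10 panels both TAA 1-week points lie below both CCl4 1-week points, and in those of Proz and Cfp they lie above.

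In complement, the 2 first-component proteases and 1 regulator fell after 1 week, out of 20 members, beside 23.1% of all features. C1s, the protease of the first component that cuts C4 and C2, was 5.81 and 5.97 in TAA livers (miR-29a and NC) against 6.38 and 6.52 in CCl4 livers (-0.56 ± 0.12, limma adjusted p = 0.0204). C1ra, the protease that activates C1s, was 5.95 and 6.03 against 6.36 and 6.49 (-0.43 ± 0.12, limma adjusted p = 0.0459). Both TAA values were the lower ones in each gene, and after 2 weeks the TAA values (C1s 5.84 and 5.94, C1ra 5.82 and 5.80) were again below the CCl4 values (C1s 6.01 and 6.20, C1ra 6.04 and 6.19).

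Cfi, factor I, the protease that inactivates C3b and C4b, was 7.78 and 8.08 in TAA livers after 1 week against 8.37 and 8.42 in CCl4 livers (-0.47 ± 0.14, limma adjusted p = 0.0480), and 7.84 and 7.85 against 8.13 and 8.19 after 2 weeks. Its 4 TAA values lay below its 4 CCl4 values. C1ra has a near-identical neighbour, C1rb, and the probes of the 2 genes may pick up both. C1rb itself was 1.62 and 1.83 in TAA livers after 1 week against 2.90 and 2.85 in CCl4 livers (-1.15 ± 0.13, limma adjusted p = 0.0051). C1s2, also outside the members, was 6.60 and 6.46 in TAA livers (miR-29a and NC) after 1 week. In CCl4 livers it was 6.57 and 6.71, so the groups overlapped.

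C4b, Mbl2 and C3 were higher in TAA livers after 1 week by a margin that did not pass. C4b, the fourth component, was 9.01 and 9.59 in TAA livers against 8.62 and 8.70 in CCl4 livers (+0.64 ± 0.22, limma adjusted p = 0.072), and 8.58 and 8.35 against 8.80 and 8.76 after 2 weeks. Mbl2, a mannose-binding lectin, differed by +0.40 ± 0.13 (limma adjusted p = 0.058) and C3, the central component, by +0.33 ± 0.13 (limma adjusted p = 0.11). Mbl1, the second mannose-binding lectin, went the other way with -0.70 ± 0.21 (limma adjusted p = 0.053). C2, Masp1, Masp2, Cfb, the 5 terminal genes C6, C8a, C8b, C8g and C9, and the inhibitors C4bp, Serping1 and Vtn differed by -0.43 to +0.32, none past the threshold. That range is of the brightest probes. Other probes of these genes ran from -1.23 for C8g to 0.35 for Masp2, with -0.93 for a Masp1 probe and -0.56 for Serping1.

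Cfp, properdin, which stabilises the alternative pathway convertase and is made mainly by myeloid cells, varied most of all members over the 8 arrays. It was 3.48 and 5.20 on the TAA 1-week miR-29a and NC arrays, against 2.83 and 2.69 on the CCl4 1-week arrays, and 3.14 and 2.90 on the TAA 2-week arrays against 2.39 and 2.94 on the CCl4 2-week arrays. The difference after 1 week was +1.58 ± 0.49 (limma adjusted p = 0.056), and over all weeks +0.96 ± 0.40 (limma adjusted p = 0.18). The value of 5.20 is from the array with the high neutrophil and macrophage sums, and the part of such cells was not tested. On the TAA 1-week miR-29a array, where Cfp was 3.48, the neutrophil sum was 8.06 and the macrophage sum 71.7.

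In the wider complement list, chosen in the same way, 7 of 21 measured genes fell and 1 rose after 1 week, with a median of -0.11. Over all features 23.1% fell and 12.6% rose. Besides C1rb, the genes that fell included Cd59a, which blocks the membrane pore (2.79 and 2.59 in TAA livers against 3.79 and 3.60 in CCl4 livers), the factor H-related gene Cfhr2 (-0.89 ± 0.13), and Colec11, a collectin of the lectin pathway (-0.71 ± 0.15). Itgam, a chain of complement receptor 3 on myeloid cells, was 4.81 and 4.28 in TAA livers (miR-29a and NC) against 2.65 and 1.65 in CCl4 livers (+2.40 ± 0.34, limma adjusted p = 0.0069). The neutrophil and macrophage sums were 8.06 and 71.7 on the miR-29a array and 324 and 354 on the NC array of these TAA livers, and their part in the Itgam level was not tested. Hc, the gene of C5, was 8.46 and 8.87 in TAA livers against 8.34 and 8.50 in CCl4 livers and did not pass.

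Among 17 acute-phase genes outside the list 1 passed after 1 week, Hp, haptoglobin, which rose (+0.74, limma adjusted p = 0.0390), while 14 of the 17 were above 0 in TAA livers, with a median of 0.72. Taken by pair, the median of the 17 was 2.09 between the 1-week NC arrays and -0.03 between the 1-week miR-29a arrays. Of 14 measured hepatocyte markers 2 fell in TAA livers after 1 week, beside 23.1% of all features, and the median of the 14 was -0.02. The 2 were Cps1, the first enzyme of the urea cycle (-1.22 ± 0.15), and Cyp2e1, an alcohol-metabolising P450 (-0.64 ± 0.19). Of 11 liver transcription factor genes 1 fell, Cebpa (-0.68 ± 0.19), while Hnf4a was 7.76 and 7.63 in TAA livers against 7.70 and 7.76 in CCl4 livers. Il6st, the shared receptor chain of the interleukin 6 family, fell (-0.98 ± 0.20) and Il1b, an inflammatory cytokine, rose (+1.91 ± 0.51), all by limma with adjusted p from 0.0056 to 0.0460. The Il1b level was -1.61 and 1.18 in TAA livers (miR-29a and NC), against -2.46 and -1.80 in CCl4 livers, so the size of its difference rests on the TAA 1-week NC array.

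**Figure D4:**
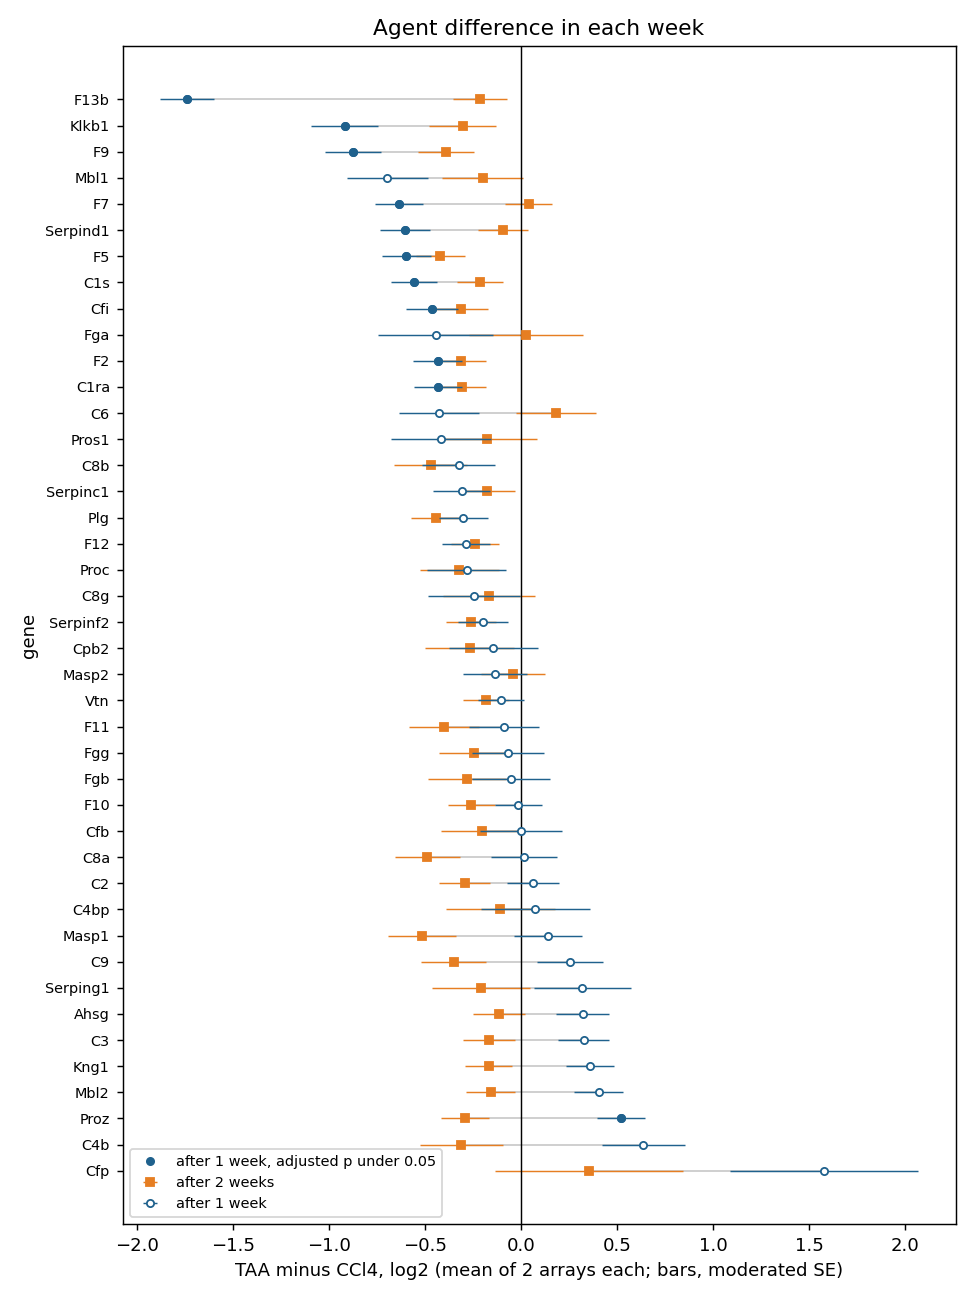
Difference between TAA and CCl4 livers for each of the 42 genes (horizontal axis, log2; means of 2 arrays each, bars are moderated SE), after 2 weeks (orange squares) and after 1 week (blue circles, filled where the adjusted p is under 0.05). After 2 weeks 38 of the 42 squares lie below 0 and none passed.

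After 2 weeks no member passed, and no feature of the array did (0 of 18534 by limma, with 11.3% of all features at an unadjusted p under 0.05). The members nevertheless leaned to one side: 38 of 42 (90.5%) were lower in TAA livers, against 60.7% of all features, with a median of -0.24 against -0.08. The lean was not particular to them: of 14 hepatocyte markers 12 were lower and 2 higher, with a median of -0.14. The 4 members that were not lower were Cfp, C6, F7 and Fga, named after their values were seen. The largest differences were those of Masp1, a lectin pathway protease (-0.52 ± 0.18), C8a, a chain of the membrane pore (-0.49 ± 0.17), C8b (-0.47 ± 0.19) and Plg (-0.44 ± 0.13). Other probes of C8a and Masp1 disagreed: a second C8a probe gave 0.10, and 2 further Masp1 probes gave -0.18 and 0.997. Because the 42 values come from the same 4 arrays, this count has no test of its own.

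Over both weeks together, none of the 42 genes passed, and no feature did (by limma, 28.7% of all features and 12 members, or 28.6%, at an unadjusted p under 0.05). The medians were -0.21 over the members and -0.13 over all features, and 34 of 42 members (81.0%) were lower in TAA livers, against 61.5% of all features. That count was 20 with quantile normalization and 41 with median scaling. In 13 members all 4 TAA values lay below all 4 CCl4 values, 31% of the members beside 23.5% of all features whose groups did not overlap in either direction, and no member lay wholly above. The 13 were C1ra, C1s, Mbl1, Cfi, F13b, Plg, F12, F5, Klkb1, Serpinc1, Serpind1, F2 and F9. F5 averaged 5.47 ± 0.06 in TAA livers and 5.98 ± 0.13 in CCl4 livers (SD, n = 4 each), a difference of -0.51 ± 0.12 (limma adjusted p = 0.13). The largest mean difference was that of F13b (-0.98 ± 0.32, limma adjusted p = 0.13).

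These agent differences depend on how arrays are scaled. Scaling to the array median in place of the 75th percentile moved the median of all features after 1 week to -0.75 and that of the members to -0.77, and quantile normalization gave -0.06 and 0.02. Relative to the median of all features, F13b was lower by -1.58 with either percentile scaling and by -1.37 after quantile normalization, and 10 of the 11 passing genes kept their side of that median in all 3. The exception was C1ra, at +0.06 after quantile normalization. Most falls were smaller there: relative to all features F5 was at -0.11 (-0.44 by the 75th percentile), C1s at -0.06 (-0.40), Cfi at -0.11 (-0.31) and F2 at -0.13 (-0.28). Over both weeks the members' median relative to all features was -0.08 by either percentile and +0.06 by quantile normalization.

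Between 2 weeks and 1 week, no member and no feature passed (by limma, 5.19% of all features and 1 member, C2, at an unadjusted p under 0.05). The members were on the whole lower after 2 weeks, 35 of 42 (83.3%) against 44.0% of all features, with a median of -0.15 against 0.03. Other lists leaned the same way, with 16 of 17 acute-phase genes (median -0.69), 10 of 10 macrophage genes (-0.64) and 6 of 6 neutrophil genes (-1.23) lower after 2 weeks, the lists that were high on the TAA 1-week NC array. Their part in the members' count was not tested. Of 14 hepatocyte markers 9 were lower after 2 weeks, with a median of -0.03. Between matched arrays the members' median was -0.13 (NC) and -0.09 (miR-29a) in CCl4 livers, and -0.28 (NC) and -0.13 (miR-29a) in TAA livers. The lean was weaker under normexp background correction (29 of 42 members lower, median -0.08 against 0.02 over all features). It was also weaker under quantile normalization (30 of 42, median -0.09 against 0.02). C2, which C1s cuts to form the C3 convertase, was 6.13 and 6.04 in TAA livers and 6.45 and 6.32 in CCl4 livers after 2 weeks (miR-29a and NC), against 6.64 and 6.61 in TAA livers and 6.48 and 6.64 in CCl4 livers after 1 week. All 4 of its 2-week values lay below the 1-week values, as did those of Vtn, vitronectin, an inhibitor of the membrane pore. These were the only 2 members whose weeks did not overlap (4.76%, beside 2.57% of all features).

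The 2 members with the largest week difference were Cfp (-0.71 ± 0.40) and C4b (-0.36 ± 0.24), neither past the threshold (limma adjusted p = 0.87 and 0.88). Without the TAA 1-week NC array they were -0.25 and -0.12, and without the TAA 2-week NC array -0.38 and -0.16. Within TAA livers Cfp differed by -1.32 and C4b by -0.83 between 2 weeks and 1 week, and within CCl4 livers by -0.10 and +0.12. In tests within 1 toxin, no member passed for 2 weeks against 1 week in TAA livers, where no feature did (27% of features at an unadjusted p under 0.05), or in CCl4 livers, where 1.08% of features passed by limma (0.993% higher and 0.0863% lower after 2 weeks, and 18.5% at an unadjusted p under 0.05). The median over the members was -0.19 in TAA livers and -0.10 in CCl4 livers, against 0.04 and -0.03 over all features.

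Between miR-29a and NC livers no member and no feature passed (by limma, 2.83% of all features and 0 members at an unadjusted p under 0.05). The median difference was -0.02 over the members and 0.03 over all features, and no member had groups that did not overlap, as 1.43% of all features did. The largest differences were Cfp, -0.47 ± 0.40, and C6, a component of the membrane pore, +0.39 ± 0.19 (limma adjusted p = 0.9997 for both). Without the TAA 1-week NC array Cfp was at -0.0099 and C6 at 0.24, and over all single arrays left out Cfp ran from -0.80 to -0.0099 and C6 from 0.24 to 0.55. C6 was 4.31, 4.27, 4.36 and 4.37 on the miR-29a arrays of the TAA 2-week, TAA 1-week, CCl4 2-week and CCl4 1-week pairs, against 4.12, 3.59, 3.71 and 4.34 on the NC arrays of those pairs. It was higher with miR-29a in 4 of 4 pairs, with differences between 0.03 and 0.67. C8b was the other gene higher in all 4 pairs, and C1s, Cfi and Fgb were lower in all 4, all 5 named after their values were seen.

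The 4 pairs were far from alike, since the TAA 1-week pair held most of the spread. In that pair 11 of 42 members were lower and 4 higher with miR-29a by over 0.5 log2 units (12.9% and 17.2% of all features). The 11 were Cfp, Fga, C4bp, Pros1, Cpb2, Serping1, Fgb, Cfb, Mbl1, C4b and Fgg, among them acute-phase genes, and the 4 were C8g, C6, Proc and C8b.

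Fga was lower with miR-29a by -1.09 in the TAA 1-week pair, and the differences were -0.19, 0.03 and -0.05 in the TAA 2-week, CCl4 2-week and CCl4 1-week pairs. Its levels in those 3 pairs were 6.04, 6.13 and 6.51 on miR-29a arrays against 6.23, 6.09 and 6.57 on NC arrays. C4bp, a cofactor of factor I that also binds protein S, was 7.22 on the TAA 1-week miR-29a array against 8.14 on the NC array, and 7.58, 7.80 and 7.53 against 7.59, 7.59 and 7.69 in the same 3 pairs. For 10 members the TAA 1-week NC array was the highest of all 8 (Cfp, Fga, C4bp, Cpb2, Serping1, Fgb, Cfb, C4b, Fgg and C3), and for 11 it was the lowest. The acute-phase and neutrophil sums given above are high on that same array, and whether they, the liver or the oligonucleotide account for the pair's difference was not tested.

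**Figure D5:**
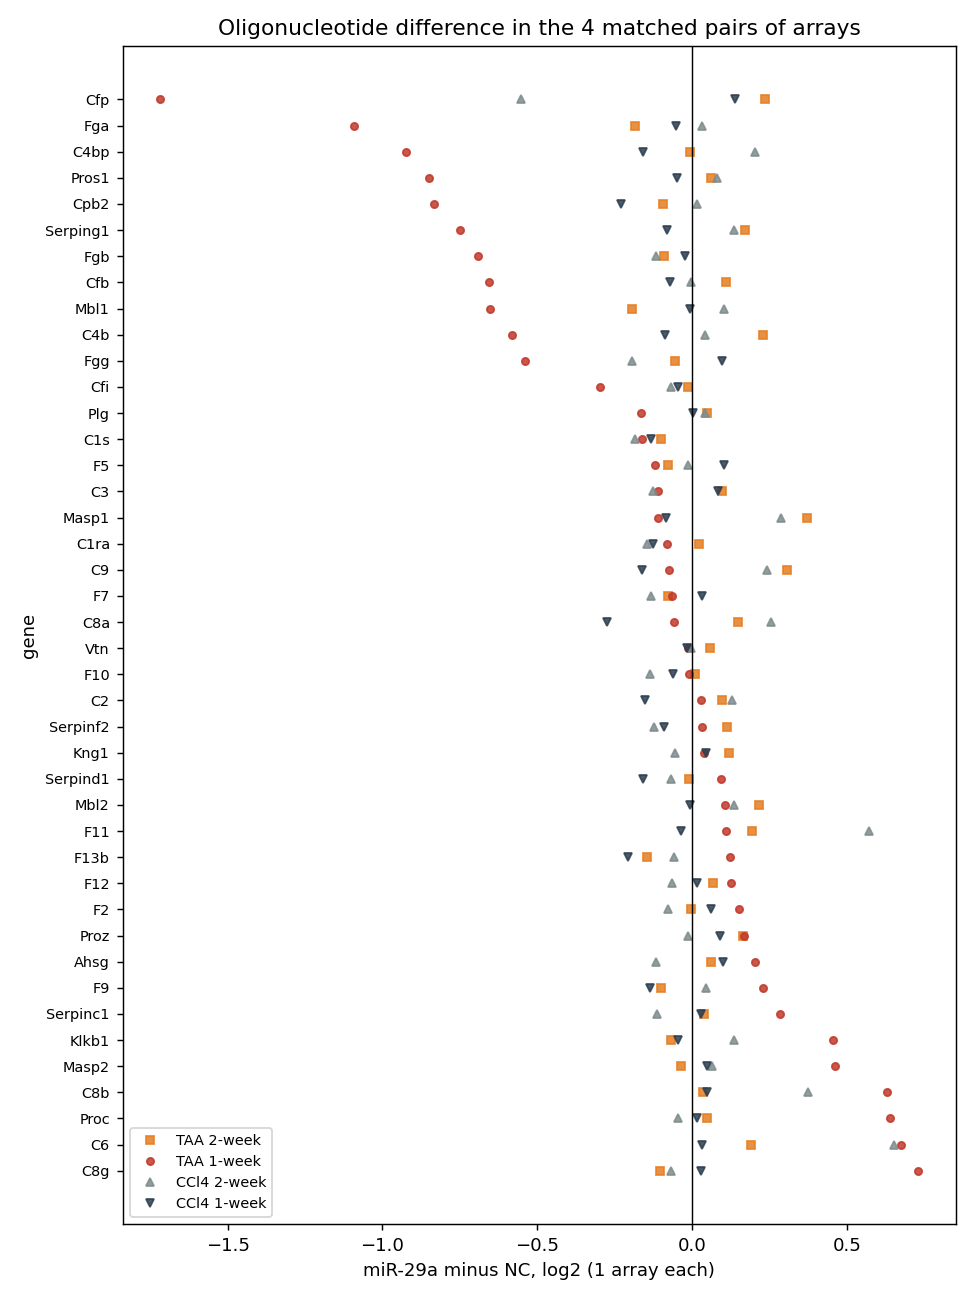
Difference between the miR-29a and the NC array in each of the 4 matched pairs for the 42 genes (horizontal axis, log2; 1 array each, no error). The TAA 1-week pair (red) runs from -1.72 for Cfp to 0.73 for C8g, wider than the other 3 pairs.

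The oligonucleotide difference did not pass a test of change between toxins or between weeks in any member, nor in any feature (by limma, 1.39% and 1.92% of all features at an unadjusted p under 0.05). Between toxins the largest terms were those of Fga (-0.63 ± 0.42) and Cfp (-0.53 ± 0.85), and between weeks those of C4bp (0.64 ± 0.35) and Cfp (0.63 ± 0.84). Both terms of Cfp changed sign without the TAA 1-week NC array.

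The members as a whole varied less over the 8 arrays than the array at large, with a median range of 0.69 log2 units beside 0.93 over all features. Their own ranges ran from 0.34 for Vtn to 2.81 for Cfp. In 13 members more than 1 probe could be compared, and in 8 of these the probes disagreed in the sign of the TAA difference after 1 week: C8a, F10, Fga, Kng1, Masp1, Masp2, Proz and Serping1. Of the passing genes with a second probe, C1ra, F5 and F7 kept the sign and Proz did not.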

How the data were processed

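RNA of 8 mouse livers was hybridised to 8 one-colour (Cy3) Agilent arrays of 1 slide. Per the file headers, the deposited intensity values are processed signals of Agilent Feature Extraction 10.10.1.1, background-subtracted and detrended within each array, with probe positions on mm9. The authors' deposited table holds log2 values. Set against the scanner signals, about 99.8% of probes on each array lie within 0.01 of the log2 processed signal minus 1 constant per array. The choice of constant is not stated in the sources used here. The 75th percentile of each deposited column was between -0.0011 and -4.2e-05, so the constant was close to the array's 75th percentile.

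Scaling was by the 75th percentile of non-control probes on each array (log2 scale), outlier-marked spots were left out, spots of 1 probe were averaged, and the brightest probe of each gene was kept if it was well above background on at least 4 arrays. limma 3.58.1 in R 4.3.3 fitted agent, week and oligonucleotide on all 8 arrays (4 residual degrees of freedom), with an agent by week term for differences within 1 week or 1 agent (3 residual degrees of freedom). Tests were two-sided and adjusted by Benjamini-Hochberg over 18534 features at 0.05. A check on simulated data required only that planted agent and agent by week differences were recovered in size. The within-week comparison was not part of that check. With 1 array per combination, p-values measure the spread between these arrays, which may be technical, and 8 arrays allow limited precision. Values on every array are given for members past the threshold and for the 2 largest differences of each comparison, and pathway genes by up to 5 per list and direction, of which 1 is not reported here. The members and lists were chosen with earlier results of these data known, and the within-week comparison was added after the data were seen. C1s is named C1s1 in RefSeq. Alternatives were background correction, scaling, filters, averaging of probes, a block, and leaving out arrays. The authors' table was counted as an alternative too, although its scaling was nearly that of the main fit.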

Additional observations from a re-analysis of the deposited data

Results flagged for a closer look

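Among the 4 arrays of each toxin, 5 values of members lay far from the other 3, past the critical gap of Dixon's test, out of 84 groups tested. Chance gives about 1 in 20, or 4.2. Of these, 3 came from the TAA 1-week NC array, where Fgb was 10.61 (nearest other TAA array 9.92), Fgg 10.34 (nearest 9.85) and Cfb, the serine protease of the alternative pathway, 8.76 (nearest 8.18). The same array had the high acute-phase, neutrophil and macrophage sums, whose part was not tested. C8b was 6.60 on the TAA 1-week miR-29a array (nearest 6.01), and C6 was 3.71 on the CCl4 2-week NC array (nearest 4.34). For F13b, the agent difference changed between the weeks by 1.53, a test of the difference itself (limma adjusted p = 0.0267).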

How the results depend on the processing

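Over both weeks, TAA against CCl4 passed in 22 members with median scaling (29.3% of all features) and in 0 without any single array. It passed in 4 without the CCl4 2-week pair (23.4%) and in 7 without the TAA 2-week pair (28.2%). In these fits only the 1-week arrays give the agent difference. The same holds for the agent by week term within 1 week, with 11 members (35.7%). The members' median for TAA against CCl4 over both weeks was 0.0090 with quantile normalization, -0.60 with median scaling, and -0.24 to -0.14 without single arrays. For miR-29a against NC it was -0.054 with quantile normalization and -0.061 with median scaling. The agent by week term passed in 5 members with normexp (18.4%), 2 with quantile normalization (8.35%), 3 with median scaling (18.6%), 0 with no filter on dim probes (0%), 2 with probes well above background on all 8 arrays (13.6%), 2 with the mean of all probes of a gene (9.91%), and 0 to 3 without single arrays. Within 1 week, 18 members passed with normexp (44.5% of features), 6 with quantile normalization (31.6%), 31 with median scaling (63.6%), 3 with no filter (11.2%) and 1 to 13 without single arrays. F13b passed there in 15 of 15 alternatives (-2.33 to -1.43), Klkb1 and F9 in 13, F7 in 11, F5 and C1s in 9, Serpind1 in 8, Cfi and F2 in 6, and Proz and C1ra in 5. The sign turned for Proz with median scaling (-0.074) and with the mean of its probes (-0.18). For C4b between weeks it turned without the TAA 1-week pair, without the TAA 2-week pair and within CCl4 livers (0.12 each). These are 1 estimate, since only CCl4 arrays give the week difference in each. Cfp turned in the miR-29a by agent term when the NC array of CCl4 livers at 1 week (0.11) or of TAA livers at 1 week was left out (0.53; range -1.59 to 0.53) and in the miR-29a by week term when the NC array of TAA livers at 1 week (-0.40) or 2 weeks was left out (-0.04; range -0.40 to 1.66). With matched combinations as a replicate block, 0 members passed in each of the 3 comparisons, and the pairing changed no call. The causes of these shifts were not tested.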
